A study of Mus musculus with 9 samples.

Results

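Genes of the smooth-muscle contractile apparatus were followed in cultured MC38-P cells and in 2 liver metastatic derivatives of that line, MC38-LM3a and MC38-LM3b. The 10 genes were taken by symbol, as Acta2, Actg2, Tagln, Cnn1, Cnn2, Myl9, Tpm1, Tpm2, Flna and Srf, out of 16399 genes with values. Of the 10, 9 had values and 7 were high enough to be tested, and the level of Cnn1 was not analysed here. MC38-P is the parental murine colorectal cancer line MC38, carrying a GFP and luciferase reporter. Both derivatives come from the reporter-bearing line by repeated passage through C57BL/6 mice, in which cells were injected into the spleen and the outgrowths in the liver were cut out, digested with collagenase and grown in culture before the next injection. No group was given a treatment in the labels, and every group was sampled as cells in culture with 3 biological replicates. Each derivative is a separately selected line, so a difference from MC38-P is a difference between lines. The comparisons ask how the mRNA levels of the contractile genes differ between each derivative and the parental line, and between the derivatives.

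Contractile filaments are built from actin and myosin. Smooth muscle cells and myofibroblasts make the muscle actins Acta2 and Actg2 together with transgelin (Tagln) and calponin 1 (Cnn1), and Acta2 is widely used to mark them in tumours. Tropomyosins, calponin 2, regulatory myosin light chains and filamin A also serve the stress fibres of many cells that are not muscle. Srf is the transcription factor that many of these genes share. It binds a 10-base DNA element called the CArG box, and it works with myocardin-related cofactors (Mrtfa and Mrtfb), which unpolymerised actin holds back, or with ternary complex factors, which drive immediate-early genes.

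The 250 bases before the start of transcription are shown for the 3 genes that changed in both derivatives (Acta2, Cnn2 and Tpm2), for the regulator Srf itself, and for Myl9, the other gene of the set with a CArG box in this window. The sequences come from RefSeq on build GRCm38.p6, read 5′ to 3′ along the gene's strand, and 8 of the 10 genes had a window (Actg2 and Tagln had none). Capitals mark CArG boxes and matches in which 1 of the 6 centre bases is changed. The pattern is its own reverse complement, so the search covers both strands.
Acta2 (chr19:34255374-34255623, minus strand): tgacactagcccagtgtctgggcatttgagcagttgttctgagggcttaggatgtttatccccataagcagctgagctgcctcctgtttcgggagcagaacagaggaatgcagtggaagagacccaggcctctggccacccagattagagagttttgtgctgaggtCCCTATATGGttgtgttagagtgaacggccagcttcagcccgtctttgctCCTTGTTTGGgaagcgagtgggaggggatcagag
Cnn2 (chr10:79988350-79988599, plus strand): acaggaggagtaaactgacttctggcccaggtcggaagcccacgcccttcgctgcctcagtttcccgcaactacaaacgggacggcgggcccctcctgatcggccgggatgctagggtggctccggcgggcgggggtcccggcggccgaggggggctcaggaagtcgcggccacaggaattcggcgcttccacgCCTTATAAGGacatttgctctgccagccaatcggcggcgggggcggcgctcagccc
Myl9 (chr2:156775214-156775463, plus strand): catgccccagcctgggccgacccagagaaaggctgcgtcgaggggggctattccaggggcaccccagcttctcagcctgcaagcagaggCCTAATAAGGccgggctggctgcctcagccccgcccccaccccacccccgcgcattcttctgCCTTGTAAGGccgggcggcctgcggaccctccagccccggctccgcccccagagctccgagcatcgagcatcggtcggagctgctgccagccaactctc
Srf (chr17:46556163-46556412, minus strand): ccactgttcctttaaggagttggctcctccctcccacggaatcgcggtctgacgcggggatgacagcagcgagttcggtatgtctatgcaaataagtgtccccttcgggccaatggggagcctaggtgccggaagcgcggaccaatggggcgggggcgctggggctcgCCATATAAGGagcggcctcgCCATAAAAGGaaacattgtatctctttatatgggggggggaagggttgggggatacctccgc
Tpm2 (chr4:43523555-43523804, minus strand): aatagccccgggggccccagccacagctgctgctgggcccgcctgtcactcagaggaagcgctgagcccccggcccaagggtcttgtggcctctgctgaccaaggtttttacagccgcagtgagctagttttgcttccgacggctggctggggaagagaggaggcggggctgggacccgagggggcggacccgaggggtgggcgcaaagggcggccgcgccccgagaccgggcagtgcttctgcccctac
The window of Cnn2 holds a CArG box 56 bases before the start, that of Myl9 holds a CArG box at 161 and a changed match at 99, and that of Srf holds CArG boxes at 82 and 62. In the Acta2 window, no exact box was found and changed matches begin 84 and 34 bases before the start. Cnn1, Tpm1, Tpm2 and Flna had neither form. An exact box was therefore present in 3 of 8 windows and either form in 4 of 8, whereas 1.47% of all 32851 RefSeq windows of this length hold an exact box and 8.59% hold either form. Related lists used below also held them. Of 10 non-muscle paralogs with a window, 2 had an exact box and 5 either form. For 15 Mrtf-dependent targets these counts were 5 and 6, and for 14 other smooth-muscle contractile genes 2 and 2. A match is only a run of letters and does not show that Srf binds there.

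The levels are TPM, transcript abundance scaled to transcript length and to a fixed total per library, and each library had between 10875 and 11218 genes at 1 TPM or more. The depth of sequencing is unknown. Some libraries stood apart along transcript length. Against the mean of their own replicates, MC38-P replicate 3 had lower values for longer transcripts (Spearman correlation across 11170 genes of -0.61) and MC38-LM3a replicate 3 had higher ones (0.64), whereas the MC38-LM3b libraries showed no such slope (-0.01 to 0.0135). These are deviations from a group's own mean, so the remaining libraries of each group slope the other way (0.50 and 0.41 in MC38-P, -0.54 and -0.51 in MC38-LM3a). Main results are also given without both replicate 3 libraries. That setting keeps the MC38-P libraries that slope up and the MC38-LM3a libraries that slope down. In it, a difference of MC38-LM3a from another line cannot be told apart from the trend along length. The cells are labelled epithelial. The keratin Krt8 stood at 1047.28 to 1205.60 TPM in MC38-P, while the epithelial cadherin Cdh1 was at 0.08 TPM or less in all 9 libraries and the epithelial adhesion molecule Epcam at 1.87 to 6.31 TPM.

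The 9 genes with values fell into levels far apart, as the plot of levels by library shows. Averaged over the 9 libraries, Tpm1 was highest at 798.6 TPM, followed by Flna (385.7), Cnn2 (274.1), Tpm2 (190), Srf (37.5), Acta2 (2.49), Myl9 (1.14), Tagln (0.381) and Actg2 (0.108). Ranges of neighbours overlapped between Flna and Cnn2 (lowest Flna library 287.83, highest Cnn2 library 312.74), between Cnn2 and Tpm2 (227.61 against 235.43), between Acta2 and Myl9, between Myl9 and Tagln only at 0.81, and between Tagln and Actg2. Tpm1 and Srf did not overlap with a neighbour. The genes that define smooth muscle, Acta2, Actg2 and Tagln, were therefore the lowest of the set together with Myl9, and the genes that other cells also use were the highest.

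**Figure D1:**
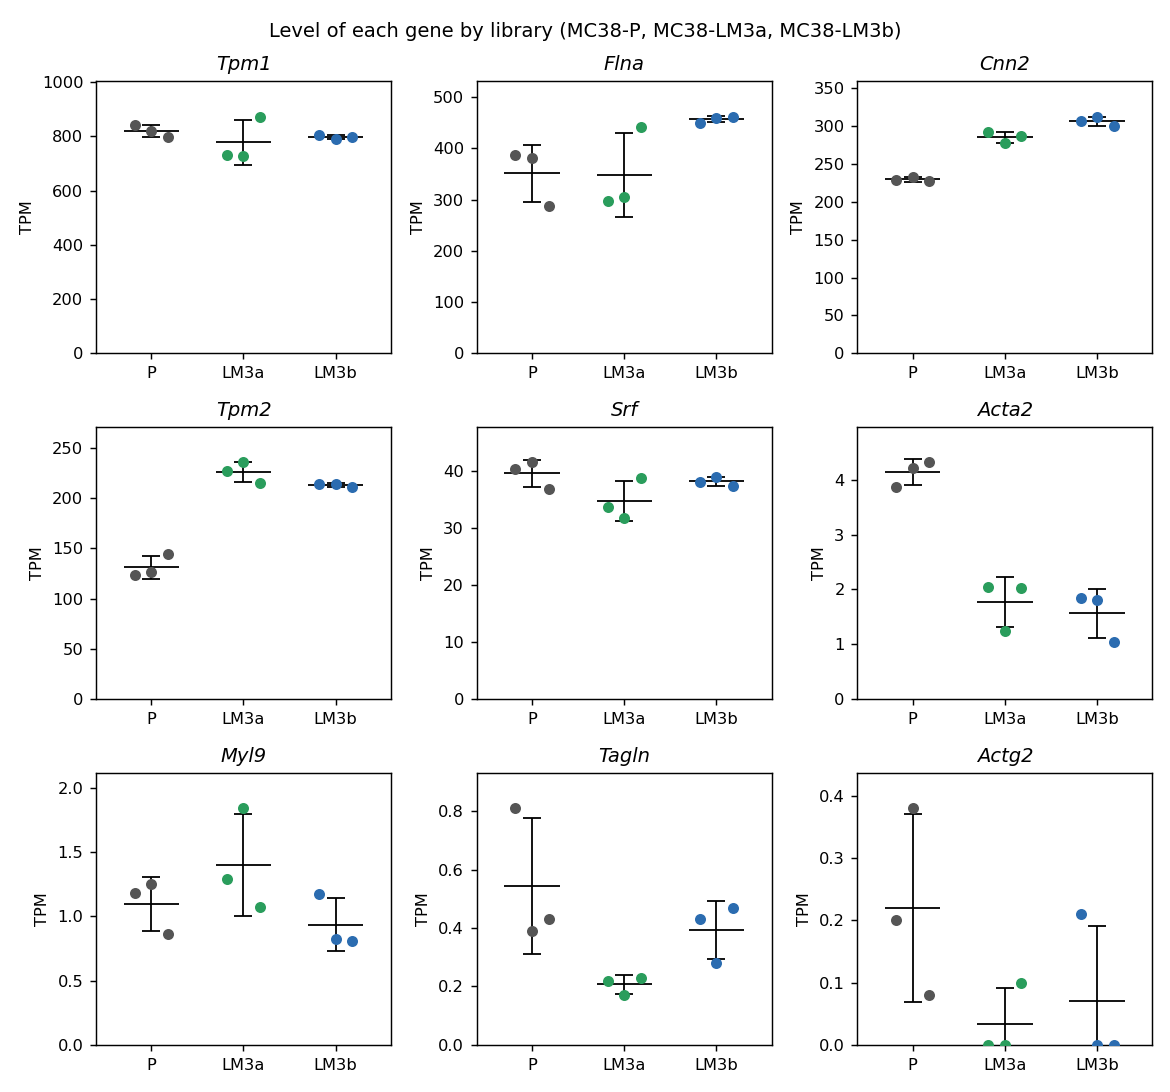
TPM of each of the 9 genes (vertical axes, each from 0) in every library of the 3 lines (points), with the mean and SD of 3 replicates (bars). Acta2 lies at 3.87 to 4.32 TPM in MC38-P and at 1.05 to 2.04 TPM in the derivatives, Tpm2 and Cnn2 lie higher in the derivatives, and Flna is spread within MC38-P and MC38-LM3a.

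Acta2 fell, and Tpm2 and Cnn2 rose, in both derivatives. In the comparison of MC38-LM3a with MC38-P, 2 of 7 tested genes rose, 1 fell and 4 did not pass the test. Across all 11287 tested genes, 28.0% were called in that comparison, 14.1% as higher and 13.8% as lower. The counts for MC38-LM3b were the same (2 higher, 1 lower, 4 not passed), beside 46.7% of all tested genes, 35.6% higher and 11.2% lower. With 3 of 7 called in each comparison, nothing particular to these genes can be read from the counts. Over all tested genes, 13.3% were called higher in both derivatives and 9.07% lower in both. The 7 genes had a median log2 fold change of -0.03 for MC38-LM3a and -0.04 for MC38-LM3b, and that of all tested genes was -0.0002 and 0.21. Since the typical gene lay 0.21 higher in MC38-LM3b, values centred on the median of each library are given below for that derivative, and with them the split of the 7 genes in MC38-LM3b became 1 higher and 3 lower, where 22.9% of all tested genes were higher and 26.4% lower. Groups that did not overlap were also common among all genes. In MC38-LM3a, Tpm2 and Cnn2 lay wholly above MC38-P (20.3% of tested genes did) and Acta2 wholly below (15.9%). In MC38-LM3b, Tpm2, Cnn2 and Flna lay above (51.3%) and Acta2 below (15.4%). Both comparisons use the same MC38-P libraries.

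**Figure D2:**
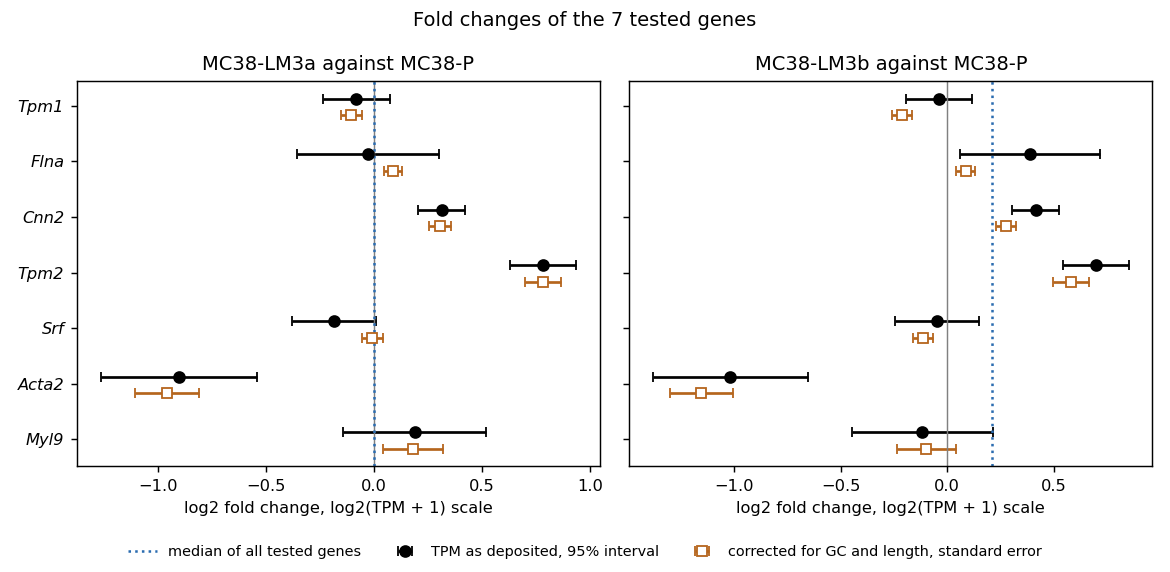
Log2 fold change on the log2(TPM + 1) scale (horizontal axes) of the 7 tested genes in MC38-LM3a (left) and MC38-LM3b (right) against MC38-P. Filled circles are the deposited values with 95% intervals, open squares the values after correction along GC content and length with standard errors, and dotted lines the medians of all tested genes. Acta2 lies at -0.90 and -1.02, Tpm2 at 0.78 and 0.70, and the interval of Flna is wide in both panels.

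Acta2 (gene 11475), the actin of smooth muscle and myofibroblasts, was the gene that fell. It was measured at 3.87, 4.22 and 4.32 TPM in MC38-P, at 2.04, 1.25 and 2.02 TPM in MC38-LM3a, and at 1.84, 1.80 and 1.05 TPM in MC38-LM3b. Every MC38-P library lay above every library of the derivatives, which overlapped with each other. The parental mean of 4.14 ± 0.236 TPM (SD, n = 3) fell to 1.77 ± 0.450 TPM in MC38-LM3a, 0.428 times the parental level, and to 1.56 ± 0.445 TPM in MC38-LM3b, 0.378 times that level. On the log2(TPM + 1) scale, which understates changes of genes this low, the change was -0.90 (SE 0.164, 95% interval -1.27 to -0.54, limma adjusted p = 0.00225) in MC38-LM3a and -1.02 (SE 0.164, limma adjusted p = 0.000779) in MC38-LM3b. The study's criteria (adjusted p below 0.05 and a log2 fold change beyond 1 in size) were met in MC38-LM3b, as they were in the downward direction by 1.18% of tested genes, and not in MC38-LM3a, where 1.50% of tested genes met them. That outcome turned on the pseudocount, since with 0.1 in place of 1 the MC38-LM3a value was -1.21 (limma adjusted p = 0.00520) and met them. The MC38-LM3b value no longer reached that size without MC38-P replicate 3 (-0.99, also without both replicate 3 libraries) or MC38-LM3b replicate 3 (-0.86). In cultures, fewer cells that make Acta2 and less Acta2 mRNA per cell cannot be told apart. The fall passed the test in all 19 alternatives that kept the gene, with values from -1.21 to -0.76 and from -1.39 to -0.86. Centred on the median, the MC38-LM3b value was -1.24. MC38-LM3b did not differ detectably from MC38-LM3a (-0.11, 95% interval -0.48 to 0.25, limma adjusted p = 0.589). Reads from near-identical actins could be shared, and 7 of 1986 stretches of 50 bases in the Acta2 transcript (0.353%) also occur in Actg1 and in actin pseudogenes.

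The other 2 muscle-restricted genes with values lay below the filter of 1 TPM in at least 3 libraries. Actg2 (gene 11468), the enteric smooth muscle actin, was at 0.20, 0.38 and 0.08 TPM in MC38-P, was listed at 0, 0 and 0.10 TPM in MC38-LM3a and at 0.21, 0 and 0 TPM in MC38-LM3b. Its groups overlapped, and exact two-sided permutation tests on TPM gave p = 0.2 for MC38-LM3a and p = 0.3 for MC38-LM3b (3 libraries against 3 cannot go below 0.1). Tagln (gene 21345), an actin-binding protein of smooth muscle, was at 0.81, 0.39 and 0.43 TPM in MC38-P, 0.22, 0.17 and 0.23 TPM in MC38-LM3a and 0.43, 0.28 and 0.47 TPM in MC38-LM3b. All 3 MC38-LM3a libraries lay below all others of Tagln, and MC38-LM3b overlapped with MC38-P. The exact permutation p was 0.1, the smallest possible, for MC38-LM3a and 0.6 for MC38-LM3b. In a limma fit without the filter, over 16395 genes, the Tagln change in MC38-LM3a was -0.34 (adjusted p = 0.0400) and that in MC38-LM3b was -0.14 (adjusted p = 0.316), while Actg2 passed in neither (-0.23 with adjusted p = 0.156, and -0.19 with adjusted p = 0.192).

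Tropomyosins wind along actin filaments and steady them. Tpm2 (gene 22004), the beta-tropomyosin gene, was at 123.19, 126.13 and 144.38 TPM in MC38-P, 227.29, 235.43 and 215.13 TPM in MC38-LM3a and 214.39, 213.57 and 210.71 TPM in MC38-LM3b. Both derivatives lay above the parental line with no overlap. From 131 ± 11.5 TPM (SD, n = 3) the mean rose to 226 ± 10.2 TPM in MC38-LM3a, 1.72-fold, with a log2 fold change of 0.78 (SE 0.0695, limma adjusted p = 2.43e-05). In MC38-LM3b it rose 1.62-fold to 213 ± 1.93 TPM, with a log2 fold change of 0.70 (SE 0.0695, limma adjusted p = 4.17e-05). These calls held in all 20 alternatives, with values of 0.74 to 0.89 and of 0.47 to 0.77, and the centred value in MC38-LM3b was 0.47. Between the derivatives the difference was -0.08 (95% interval -0.24 to 0.07, limma adjusted p = 0.345).

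Tpm1 (gene 22003), the alpha-tropomyosin gene, had 842.51, 820.28 and 798.28 TPM in MC38-P, 732.56, 727.56 and 872.72 TPM in MC38-LM3a and 805.41, 789.38 and 798.71 TPM in MC38-LM3b. MC38-LM3a replicate 3 lay above every other library, the remaining MC38-LM3a libraries below all others. The log2 fold changes, -0.08 (95% interval -0.24 to 0.07, limma adjusted p = 0.432) and -0.04 (limma adjusted p = 0.652), did not pass the test. Without MC38-LM3a replicate 3 the first was -0.17 (limma adjusted p = 0.0176), without both libraries that stand apart along length it was -0.19 (limma adjusted p = 0.000743), and the MC38-LM3b value passed the test after centring (-0.26, limma adjusted p = 0.0137) and after correction for GC content and length (-0.21, limma adjusted p = 0.00326).

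Cnn2 (gene 12798), the calponin of non-muscle cells, was at 228.83, 233.26 and 227.61 TPM in MC38-P, 291.82, 277.67 and 287.62 TPM in MC38-LM3a and 306.92, 312.74 and 300.80 TPM in MC38-LM3b. The 3 lines did not overlap, with MC38-P lowest and MC38-LM3b highest. The mean rose from 229.9 ± 2.97 TPM (SD, n = 3) to 286 ± 7.27 TPM in MC38-LM3a, 1.24-fold (log2 fold change 0.31, SE 0.05, limma adjusted p = 0.00107), and to 307 ± 5.97 TPM in MC38-LM3b (log2 fold change 0.41, SE 0.05, limma adjusted p = 0.000129). The rise in MC38-LM3b was 0.19 after centring, where its limma adjusted p was 0.0925. Between MC38-LM3b and MC38-LM3a the difference of 0.10 did not pass the test (limma adjusted p = 0.147).

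Myl9 (gene 98932) encodes the regulatory light chain typical of smooth muscle myosin. Its levels were 1.18, 1.25 and 0.86 TPM in MC38-P, 1.29, 1.84 and 1.07 TPM in MC38-LM3a and 1.17, 0.82 and 0.81 TPM in MC38-LM3b. All groups overlapped. The log2 fold change was 0.19 (95% interval -0.14 to 0.52, limma adjusted p = 0.398) in MC38-LM3a and -0.12 (95% interval -0.45 to 0.21, limma adjusted p = 0.528) in MC38-LM3b, so that changes of either sign remain within the intervals. Centred on the median, the MC38-LM3b value was -0.34 (limma adjusted p = 0.112).

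Flna (gene 192176), which crosslinks actin filaments and ties them to the membrane, had the longest transcript of the set at 8456 bases. It was at 387.38, 380.56 and 287.83 TPM in MC38-P, 297.50, 304.67 and 441.79 TPM in MC38-LM3a and 450.37, 458.83 and 462.40 TPM in MC38-LM3b. The low MC38-P library and the high MC38-LM3a library are those that stand apart along transcript length. Flna was not called in MC38-LM3a (-0.03, 95% interval -0.36 to 0.30, limma adjusted p = 0.916), nor in MC38-LM3b (0.39, 95% interval 0.06 to 0.72, limma adjusted p = 0.0519), although no MC38-LM3b library overlapped with MC38-P. Without MC38-P replicate 3 and MC38-LM3a replicate 3, limma gave -0.35 (adjusted p = 1.73e-05) for MC38-LM3a and 0.25 (adjusted p = 7.63e-05) for MC38-LM3b. Corrected for the trends along GC content and length, the changes were 0.09 (adjusted p = 0.121) and 0.09 (adjusted p = 0.111), so the sign in MC38-LM3a turned. In MC38-LM3b the value was 0.17 (adjusted p = 0.159) after centring, and 0.46 (adjusted p = 0.0435) without MC38-P replicate 1.

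Srf (gene 20807), the shared regulator, was called in neither derivative with the deposited values, and was called lower in both after centring or quantile normalization. Its levels were 40.34, 41.50 and 36.88 TPM in MC38-P, 33.70, 31.81 and 38.69 TPM in MC38-LM3a and 38.14, 38.96 and 37.39 TPM in MC38-LM3b. All 3 groups overlapped, and the library of MC38-LM3a nearest to MC38-P was replicate 3. The log2 fold changes were -0.19 (95% interval -0.38 to 0.01, limma adjusted p = 0.150) and -0.05 (95% interval -0.25 to 0.15, limma adjusted p = 0.659). Without MC38-LM3a replicate 3 the former became -0.26 and passed the test, as it did without both libraries that stand apart (-0.31, limma adjusted p = 0.000434), after centring (-0.19, limma adjusted p = 0.0189) and after quantile normalization (-0.17, limma adjusted p = 0.0252), whereas the value corrected for GC content and length was -0.01 (limma adjusted p = 0.903). In MC38-LM3b, Srf was at -0.27 (limma adjusted p = 0.00220) after centring and at -0.25 (limma adjusted p = 0.00300) after quantile normalization, and so was called lower with either scaling.

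None of the 7 genes was called between MC38-LM3b and MC38-LM3a by limma, where 0.0532% of tested genes (6 of 11287, 0.0354% higher and 0.0177% lower) were called and 38.1% had an unadjusted p under 0.05. The only one of the 7 with an unadjusted p under 0.05 was Flna (0.42, limma adjusted p = 0.119). Cnn2 and Flna lay wholly higher in MC38-LM3b than in MC38-LM3a, as did 38.4% of tested genes, and Tpm2 wholly lower, as did 3.60%. The count of calls depended on MC38-LM3a replicate 3. Without it, 6351 of the tested genes were called between the derivatives, and with MC38-P replicate 3 left out as well 4 of the 7 genes were called higher and 2 lower in MC38-LM3b, where 65.0% of all tested genes were higher and 6.79% lower. The 4 were Cnn2 (0.11, limma adjusted p = 0.0192), Tpm1, Flna and Srf, and the 2 were Tpm2 (-0.12, limma adjusted p = 0.00844) and Myl9 (-0.40, limma adjusted p = 0.0282). With all libraries and correction for GC content and length, none of the 7 genes was called.

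Acta2, Tpm1, Tpm2, Cnn2, Myl9 and Tagln were each also set against the genes of their own family in the same library. Such a share does not depend on how libraries are scaled. These shares, and the pooling of the derivatives into 6 libraries, were chosen after the values were seen. Exact two-sided permutation tests were used, with p adjusted over the 6 shares, and a single derivative against MC38-P cannot reach below p = 0.1. Acta2 made up 0.0664% ± 0.00398 (SD, n = 3) of the TPM of 6 actin genes in the parental line, 0.0296% ± 0.00709 for MC38-LM3a and 0.0254% ± 0.00753 for MC38-LM3b. Pooled, the derivatives lay below MC38-P with exact permutation p = 0.0119, the smallest possible (adjusted p = 0.0238), and each derivative alone had p = 0.1. The actin sum only ranged from 5715 to 6547 TPM. With Acta2 already seen wholly lower, this outcome was fixed beforehand and is no separate support. The actin pool as a whole was nearly all Actb and Actg1, cytoplasmic actins, which stood at means of 2990 and 3239 TPM in MC38-P. With the deposited values they were not called in either derivative (Actb -0.04 and 0.03, Actg1 -0.09 and -0.06). Without both libraries that stand apart, Actb (-0.12, limma adjusted p = 0.0228) and Actg1 (-0.16, limma adjusted p = 0.0243) were called lower in MC38-LM3a. Corrected for GC content and length, Actg1 was called lower in MC38-LM3b (-0.17, limma adjusted p = 0.0453).

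Within the tropomyosins Tpm1 to Tpm4, Tpm2 held 4.80%, 5.09% and 5.95% in the MC38-P libraries, 8.53%, 8.75% and 7.14% in those of MC38-LM3a and 7.45%, 7.33% and 7.26% in those of MC38-LM3b. The share of Tpm1 moved the other way, from 32.9% ± 0.149 (SD, n = 3) in the parental line to 27.8% ± 0.998 for MC38-LM3a and 27.5% ± 0.446 for MC38-LM3b. Both differences had exact permutation p = 0.0119, the smallest possible, with 6 derivative libraries against 3 (adjusted p = 0.0238). For each derivative alone, p was 0.1 for both shares, and the Tpm2 outcome followed from levels already seen to lie apart. The summed TPM of the 4 genes had means of 2490, 2790 and 2897 TPM in the 3 lines, and Tpm3, a tropomyosin of non-muscle cells, rose by 0.32 (limma adjusted p = 0.000779) and 0.36 (limma adjusted p = 0.000268). Tpm1 thus lost share in a pool in which Tpm2 and Tpm3 rose with the deposited values. After centring, only 1 gene was called higher in MC38-LM3b among the 10 tested paralogs counted below, which include Tpm3.

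Cnn2 held 40.3% ± 1.73 (SD, n = 3) of calponin TPM (Cnn2 and Cnn3) in the parental line, 41.9% ± 1.18 for MC38-LM3a and 42.0% ± 0.297 for MC38-LM3b, with exact permutation p = 0.0476 (adjusted p = 0.0714), and of the 9 single libraries only MC38-P replicate 3 could be left out with the unadjusted test still passing. Cnn3, its relative, rose as well (0.22 and 0.31). Myl9 was 0.0933% to 0.141% of the regulatory light chains by group mean, of which Myl12a and Myl12b are the bulk, and its share did not pass (exact permutation p = 0.298), nor did that of Tagln among the transgelins (exact permutation p = 0.107).

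**Figure D3:**
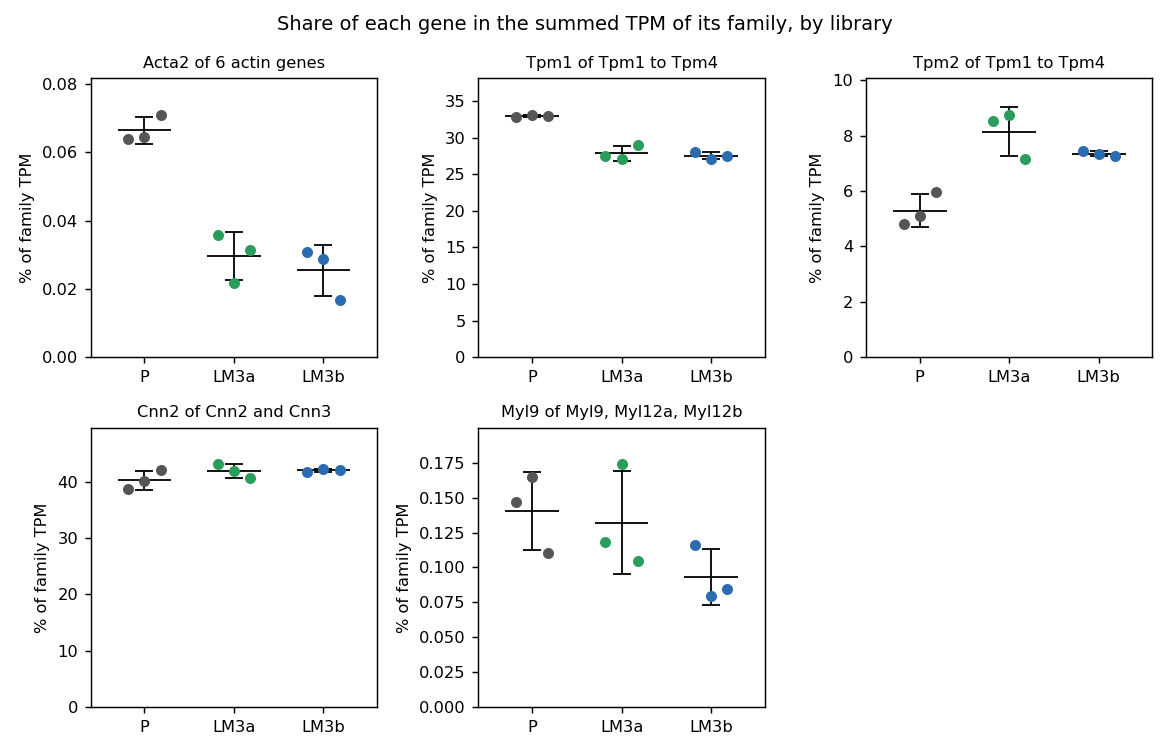
Share of a gene in the summed TPM of its family (vertical axes, percent, from 0) in each library (points), with the mean and SD of 3 replicates (bars). Acta2 and Tpm1 hold smaller shares in all 6 derivative libraries than in any MC38-P library, and Tpm2 larger ones.

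Further genes were read as lists, with counts set beside the shares of all tested genes (14.1% higher and 13.8% lower in MC38-LM3a, 35.6% higher and 11.2% lower in MC38-LM3b). Without the 2 libraries that stand apart along transcript length these shares became 18.4% higher and 45.2% lower in MC38-LM3a and 46.3% higher and 19.0% lower in MC38-LM3b. Corrected for GC content and length they were 26.4% and 24.4%, and 29.1% and 28.2%. After centring they were 19.9% and 20.1%, and 22.9% and 26.4%.

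The relatives of these genes, most of them non-muscle forms, moved upward or did not pass the test with the deposited values. Of 11 paralogs 10 were tested, and 5 rose in MC38-LM3a and 6 in MC38-LM3b with none called lower, where 14.1% and 35.6% of all tested genes rose. The 5 genes Cnn3, Myl6, Myl12a, Myl12b and Tpm3 rose in both, and Myl6 was no longer called in MC38-LM3b once corrected for GC content and length (0.06, limma adjusted p = 0.681). With that correction the counts were 6 higher and none lower in MC38-LM3a and 5 higher and 2 lower in MC38-LM3b. Myl12b, a regulatory myosin light chain, rose from 292.64, 262.80 and 253.27 TPM in MC38-P to 380.69, 353.46 and 358.74 TPM in MC38-LM3a (0.44, limma adjusted p = 0.00115) and to 367.38, 366.08 and 329.73 TPM in MC38-LM3b (0.39, limma adjusted p = 0.00139). Flnc, the muscle filamin, rose in MC38-LM3b by 0.78 (limma adjusted p = 0.00301) and had a value of 0.24 (limma adjusted p = 0.306) in MC38-LM3a. There its direction depended on the processing, with 0.41 (limma adjusted p = 5.30e-05) after correction for GC content and length and -0.11 (limma adjusted p = 0.0221) without both libraries that stand apart. Tpm4, a tropomyosin of non-muscle cells, was not called (0.05 with limma adjusted p = 0.711, and 0.20 with limma adjusted p = 0.0826), and without both libraries it was called lower in MC38-LM3a (-0.12, limma adjusted p = 0.0269) and higher in MC38-LM3b (0.14, limma adjusted p = 0.00827). Corrected for GC content and length, Tpm4 was called in neither (-0.03 with limma adjusted p = 0.739, and 0.02 with limma adjusted p = 0.795). Tagln2, the widely expressed transgelin, was at 388.41 to 441.97 TPM over all libraries and was not called (-0.10 with limma adjusted p = 0.201, and -0.07 with limma adjusted p = 0.287), but was called lower in MC38-LM3b once corrected (-0.12, limma adjusted p = 0.0384). Tagln3, the paralog not tested, lay at 0.19 to 0.84 TPM. The median change of the paralogs was 0.23 and 0.27, against -0.0002 and 0.21 for all tested genes. Centred on the median, the counts in MC38-LM3b became 1 higher and 1 lower, beside 22.9% and 26.4% of all tested genes. Without both libraries, the counts were 5 higher and 4 lower in MC38-LM3a and 7 higher and none lower in MC38-LM3b.

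Other smooth-muscle contractile genes were mostly too low to test, with 5 of 15 passing the filter. Myh11, the smooth muscle myosin heavy chain, did not exceed 0.05 TPM in any library, and the cardiac actin gene Actc1 was listed at 0 in all but 1 library. Des, which encodes desmin of muscle intermediate filaments, was at 0.85, 0.88 and 0.93 TPM in MC38-P and at 0.19 to 0.30 TPM in the derivatives, with no overlap and below the filter. Among the tested genes, 1 rose in MC38-LM3a, 3 rose in MC38-LM3b and none was called lower, beside 14.1% and 35.6% of all tested genes called higher. One of the risers in MC38-LM3b, Smtnl2, a smoothelin-like gene, was below 1 TPM in every MC38-P library (0.51, 0.85 and 0.52) and passed the filter only through the derivatives. Without both libraries that stand apart, Smtn (-0.35, limma adjusted p = 1.98e-05) and Mylk (-0.49, limma adjusted p = 0.00127), which encode smoothelin and myosin light chain kinase, were called lower in MC38-LM3a, and 4 of the 5 genes rose in MC38-LM3b. Corrected for GC content and length, neither was called in MC38-LM3a (Smtn -0.07, limma adjusted p = 0.175, and Mylk -0.16, limma adjusted p = 0.0741). With that correction, 2 genes of the list rose in MC38-LM3a, 3 rose in MC38-LM3b and none fell. Centred on the median, 1 gene rose and 2 fell in MC38-LM3a, and 1 rose in MC38-LM3b. Mustn1, a small nuclear protein of the musculoskeletal system, was the gene called in both, at 1.04, 0.77 and 1.14 TPM in MC38-P, 3.40, 2.39 and 1.77 TPM in MC38-LM3a and 1.68, 2.29 and 1.92 TPM in MC38-LM3b (0.81 with limma adjusted p = 0.00541, and 0.58 with limma adjusted p = 0.0187). Like Smtnl2, Mustn1 passed the filter only through the derivatives, since not all of its MC38-P libraries reached 1 TPM. Its rise in MC38-LM3b was lost after centring (0.36, limma adjusted p = 0.195) and without MC38-P replicate 2, MC38-LM3b replicate 2 or MC38-LM3b replicate 3.

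Genes of non-muscle myosin and stress fibres counted 13 tested of 15, with 3 higher and 2 lower in MC38-LM3a and 8 higher and none lower in MC38-LM3b (all tested genes, 14.1% and 13.8%, and 35.6% and 11.2%). Without both libraries that stand apart, the balance in MC38-LM3a turned to 3 higher and 8 lower, and MC38-LM3b had 9 higher and 1 lower. Actn4, Vasp and Pxn rose in both. Pxn, the focal adhesion adaptor paxillin, had 86.80, 82.38 and 70.05 TPM in MC38-P, 97.19, 88.59 and 113.76 TPM in MC38-LM3a (0.32, limma adjusted p = 0.0376) and 127.87, 130.10 and 126.71 TPM in MC38-LM3b (0.68, limma adjusted p = 0.000457). The call in MC38-LM3a was lost without any of 7 libraries, the exceptions being MC38-P replicate 1 and MC38-LM3a replicate 2. It was kept without both libraries that stand apart (0.13, limma adjusted p = 0.0415) and after correction for GC content and length (0.39, limma adjusted p = 1.76e-05). Many transcripts of this list are long, and after correction for GC content and length the counts were 5 higher and 3 lower in MC38-LM3a and 8 higher and 3 lower in MC38-LM3b. Centred on the median, they were 5 and 3 (all tested genes, 19.9% and 20.1%), and 6 and 2 (22.9% and 26.4%).

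Among the cofactors of Srf, Mrtfa senses free actin, and its values were 23.12, 22.22 and 16.90 TPM in MC38-P, 14.61, 13.06 and 18.78 TPM in MC38-LM3a and 23.18, 21.63 and 20.54 TPM in MC38-LM3b. The low parental and the high MC38-LM3a library are again those that stand apart. Mrtfa was not called in MC38-LM3a with all libraries (-0.40, limma adjusted p = 0.0662), and was called lower without both libraries (-0.68, limma adjusted p = 4.22e-05) and after correction for GC content and length (-0.32, limma adjusted p = 0.000746). In MC38-LM3b it was at 0.08 (limma adjusted p = 0.678), at -0.06 (limma adjusted p = 0.491) without both libraries and at -0.16 (limma adjusted p = 0.0307) after correction. Mrtfb, its close relative with a transcript of 8295 bases, was called higher in MC38-LM3b (0.55, limma adjusted p = 0.0283), as it was without both libraries (0.39) and after correction (0.25). In MC38-LM3a its value of 0.09 (limma adjusted p = 0.773) became -0.27 (limma adjusted p = 0.00482) without both libraries and 0.18 (limma adjusted p = 0.0228) after correction, so that it was called in opposite directions.

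Known Mrtf-dependent target genes changed in both directions. Of 18 tested of 20, 5 rose and 5 fell in MC38-LM3a, and 9 rose and 2 fell in MC38-LM3b (all tested genes, 14.1% and 13.8%, and 35.6% and 11.2%). Without both libraries that stand apart, the counts were 4 higher and 8 lower in MC38-LM3a and 11 higher and 4 lower in MC38-LM3b. They were 6 and 6, and 9 and 6, after correction for GC content and length, and 8 and 6, and 8 and 5, after centring (all tested genes, 19.9% and 20.1%, and 22.9% and 26.4%). Tes, Csrp1, Fhl2, Ankrd1 and Mical2 rose in both derivatives, and Csrp2 and Tgm2 fell in both. The call of Mical2 in MC38-LM3a (0.46, limma adjusted p = 0.0493) was lost without both libraries that stand apart (0.16, limma adjusted p = 0.058). It was kept after correction for GC content and length (0.53, limma adjusted p = 9.29e-06). Ankrd1, a muscle ankyrin-repeat protein that also responds to Yap, rose from 11.05, 10.50 and 9.25 TPM in MC38-P to 60.07, 63.59 and 66.13 TPM in MC38-LM3a, 6.16-fold (2.51, limma adjusted p = 4.31e-08), and to 71.18, 66.94 and 69.73 TPM in MC38-LM3b, 6.75-fold (2.64, limma adjusted p = 1.55e-08). Csrp2, a LIM protein of smooth muscle, fell from 27.12, 28.13 and 32.63 TPM to 16.49, 17.05 and 16.42 TPM (-0.77, limma adjusted p = 0.000186) and to 14.76, 14.13 and 14.84 TPM (-0.96, limma adjusted p = 3.64e-05). Its relative Csrp1 rose (0.58 and 0.59). The list's median change was 0.12 and 0.32.

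Immediate-early genes, the other class of Srf targets, were lower where they were called. Of 11 tested of 12, 5 fell in each derivative and none rose, where 13.8% and 11.2% of all tested genes fell. Without both libraries that stand apart 10 were tested, and 8 fell and none rose in MC38-LM3a and 6 fell and 1 rose in MC38-LM3b, and after correction for GC content and length 8 and 6 fell. With all libraries, Egr2, Fos, Ier2 and Nr4a1 fell in both. Nr4a1, an orphan nuclear receptor, had 6.69, 8.20 and 5.81 TPM in MC38-P, 3.15, 2.75 and 4.37 TPM in MC38-LM3a (-0.84, limma adjusted p = 0.00605) and 5.49, 3.76 and 3.63 TPM in MC38-LM3b (-0.58, limma adjusted p = 0.0239). Every MC38-P library lay above every derivative library. The call in MC38-LM3b was lost without MC38-P replicate 2 (limma adjusted p = 0.0912), MC38-LM3b replicate 2 (0.0868) or MC38-LM3b replicate 3 (0.0902). The list's median change was -0.32 and -0.16, and Egr2 was tested only because it reached 1 TPM in MC38-P.

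**Figure D4:**
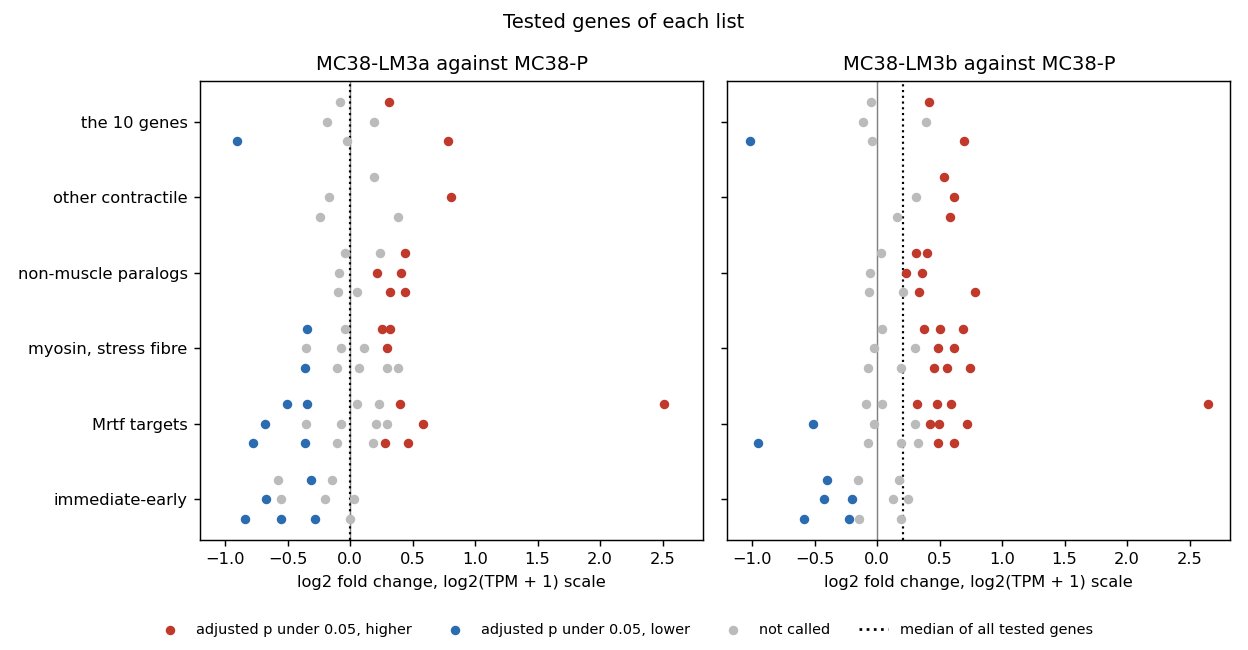
Log2 fold change on the log2(TPM + 1) scale (horizontal axes) of each tested gene (points, spread vertically within a list for legibility) in MC38-LM3a (left) and MC38-LM3b (right) against MC38-P, with called genes in red or blue and the median of all tested genes as a dotted line. Paralogs and stress-fibre genes lie mostly to the right in MC38-LM3b, immediate-early genes to the left in MC38-LM3a, and Ankrd1 lies at 2.51 and 2.64.

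Markers of cells that normally make Acta2 were measured beside its fall. Of 17 mural and fibroblast markers 14 had values and 4 were tested, and their summed level ranged over 137 to 174 TPM in MC38-P, 55.0 to 73.7 TPM in MC38-LM3a and 66.8 to 73.8 TPM in MC38-LM3b. Nearly all of it was Col3a1, a fibrillar collagen, at 122.84 to 154.16 TPM in MC38-P and 48.58 to 64.81 TPM in the derivatives. Col1a1, the main fibrillar collagen of fibroblasts, fell by 1.55 and 1.48 on the log2 scale (limma adjusted p = 9.81e-05 and 9.91e-05), and the growth factor receptor Pdgfrb had values of 0.30 (limma adjusted p = 0.135) and 0.88 (limma adjusted p = 0.000695). The pericyte marker Rgs5 did not exceed 0.08 TPM, Kcnj8 0.05 TPM and the fibroblast proteoglycan Dcn 0.13 TPM in any library, and Col1a2, the partner chain of Col1a1, did not exceed 0.08 TPM. Of the 4 tested, 2 were lower in each derivative, where 13.8% and 11.2% of all tested genes were lower. Pdgfrb was called higher in MC38-LM3b, as were 35.6% of all tested genes. Without both replicate 3 libraries 3 of the 4 were lower in MC38-LM3a, as were 45.2% of all tested genes. The part of the mural and fibroblast markers in the fall of Acta2 was not tested. Of 8 hepatocyte markers 6 had values and none was tested, with summed levels of at most 0.42, 1.3 and 0.13 TPM in the 3 lines and Alb at 0.29 TPM or less. Of 8 endothelial markers 6 had values, summing to 0.79 to 2.07 TPM over all libraries, and of 9 macrophage markers 5 had values, summing to 28.65 to 30.46 TPM in MC38-P, 34.55 to 41.52 TPM in MC38-LM3a and 40.09 to 45.97 TPM in MC38-LM3b. Almost all of it was Cd68, a lysosomal glycoprotein, which rose in both (0.33 with limma adjusted p = 0.0220, and 0.57 with limma adjusted p = 0.000795), whereas Mrc1 and Cd163, receptors of macrophages, lay below the filter and lower in the derivatives with no overlap (Mrc1 at 0.52 to 0.79 TPM in MC38-P and 0.33 to 0.47 TPM in the derivatives, Cd163 at 0.12 to 0.42 TPM and at most 0.02 TPM). Csf1r did not exceed 0.14 TPM and the leukocyte marker Ptprc 0.09 TPM in any library. Of the 9 epithelial markers, 6 were tested, with 2 higher and 4 lower in MC38-LM3a and none higher and 4 lower in MC38-LM3b. Among all tested genes 14.1% were higher and 13.8% lower in MC38-LM3a, and 35.6% and 11.2% in MC38-LM3b. The keratins Krt19 (0.39, limma adjusted p = 0.00358) and Krt20 (0.55, limma adjusted p = 0.0344, below 1 TPM in every MC38-P library) were the pair called higher in MC38-LM3a, and neither was called there after centring. Of the 4 lower, the intestinal transcription factor gene Cdx2 passed the filter only through MC38-P (2.14, 2.86 and 1.80 TPM, against 0.92 TPM or less in the derivatives). Without both replicate 3 libraries Cdx2 was not tested, and 2 were higher and 3 lower in MC38-LM3a and none higher and 3 lower in MC38-LM3b. In that setting 18.4% of all tested genes were higher and 45.2% lower in MC38-LM3a, and 46.3% and 19.0% in MC38-LM3b. Epcam fell from 4.93 to 6.31 TPM in MC38-P to 1.87 to 2.40 TPM in the derivatives (-1.14 with limma adjusted p = 9.61e-05, and -1.07 with limma adjusted p = 0.000104).

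The 3 tested genes whose log2 levels over the 9 libraries were most like those of Acta2 were Traf4, Psmc1 and Cfap298, each with a Pearson correlation of 0.97. This is a description, since the 9 libraries fall into the same 3 lines and most genes called lower in both derivatives share that pattern. Traf4, a signalling adaptor, was at 37.49 to 39.93 TPM in MC38-P and 29.48 to 31.84 TPM in the derivatives.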

How the data were processed

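Poly(A) RNA of 3 lines (9 libraries) was sequenced on the DNBSEQ platform. The authors deposited TPM rounded to 2 decimals, 1 table per library. The submitters' processing notes name HISAT and GRCm39, and the quantification tool is not given in the sources used here. The tables hold no counts, so the depth is unknown, no interval for counting error is given, and the study's count-based test was replaced by limma 3.58.1 in R 4.3.3. The limma fit used log2(TPM + 1) of 11287 genes, those reaching 1 TPM in 3 or more libraries, a mean per line over all 9 libraries, a trended variance and Benjamini-Hochberg adjustment over all tested genes. A call needed an adjusted p under 0.05. The procedure was tested on simulated data.

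The genes and lists were chosen with earlier results of these data known. Named genes are the 10, their paralogs, the largest rise and fall called in both derivatives in each list reported, the 3 genes most like Acta2 and defining markers. Others were named after their values were seen (Mrtfa, Mrtfb, Col3a1, Cdh1, Rgs5, Kcnj8, Dcn, Col1a2, Ptprc, Actc1, Csrp1, Smtn, Smtnl2, Mylk, Krt19, Krt20, Cdx2, Cd68, Cd163, Mrc1, Csf1r and genes listed as called in both). Of the genes and lists chosen, 1 paralog and 1 list are not reported here.

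The alternatives numbered 19 planned and 1 added after seeing the data, which left out MC38-P replicate 3 and MC38-LM3a replicate 3 together. Leaving out libraries in the tests of family shares was also added then. Corrected values subtract a loess fit (span 0.3) on GC content and transcript length from GENCODE M21, available for 98.96% of tested genes. P-values measure the spread between replicates labelled biological.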

Additional observations from a re-analysis of the deposited data

How the results depend on the processing

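Acta2, Tpm2 and Cnn2 kept their direction and their calls against MC38-P in every alternative that tested them, except Cnn2 in MC38-LM3b after centring on the median (0.19). With at least 5 TPM required, Acta2 was no longer tested, so the genes of the set called lower numbered 0 in both derivatives. Genes of the set called lower in MC38-LM3a (1 in the analysis reported) were 2 with no filter, 2 after centring, 2 after quantile normalization, 4 without the 2 libraries that stand apart along length, and 1 to 3 with a replicate left out (3 without MC38-LM3a replicate 3), and those called higher stayed at 2 to 2 with a replicate left out. In MC38-LM3b, those called higher were 1 after centring and 2 to 3 with a replicate left out, and those called lower were 3 after centring, 2 after quantile normalization, 2 with GC content and length offsets and 2 with a replicate block and those offsets, and 1 to 1 with a replicate left out. Between the derivatives, 4 were higher and 2 lower without the 2 libraries, and 0 to 3 and 0 to 1 with a replicate left out.

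Tested genes called in MC38-LM3a against MC38-P (3160) were 2105 with only the 2 groups compared, 5671 with the offsets, 5253 with the block and offsets, 7111 without the 2 libraries and 2083 to 4211 with a replicate left out (2083 without MC38-P replicate 2). In MC38-LM3b (5276) they were 3702 to 6637 with a replicate left out. Between the derivatives (6) they were 2 with a pseudocount of 0.1, 2 at 5 TPM, 3 with only the 2 groups, 2 with the replicate block, 12 after centring, 10 after quantile normalization, 23 with the offsets, 8025 without the 2 libraries and 0 to 6351 with a replicate left out.

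The signs that turned among the 7 genes belong to values not called with all libraries. Flna in MC38-LM3a was 0.0867 with the offsets and ran from -0.2117 to 0.0728 with a replicate left out, above 0 without MC38-P replicate 1 or 2 or MC38-LM3a replicate 1 or 2. Tpm1 in MC38-LM3b was 0.0313 after quantile normalization. Between the derivatives, Acta2 ran from -0.257 to 0.0395 with a replicate left out (above 0 without MC38-LM3b replicate 3), Cnn2 was -0.12 after centring and -0.0292 with the offsets, Tpm1 was -0.18 after centring, -0.1057 with the offsets and -0.0032 to 0.1279 with a replicate left out (below 0 without MC38-LM3a replicate 2), Flna was -3e-04 with the offsets, and Srf was -0.0855 after centring, -0.0811 after quantile normalization and -0.1055 with the offsets. The block with the offsets gave the same values as the offsets alone. The cause of these shifts was not tested.

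Whether replicate numbers pair the libraries was not settled. Deviations of same-numbered libraries correlated between -0.66 and 0.07, and some libraries correlated best with another number. In pairs with an MC38-LM3b library, same-numbered deviations correlated at 0.0353 to 0.0748 and different-numbered ones at -0.0627 to 0.0073. With the replicate block, 2200 tested genes were called in MC38-LM3a and 3891 were in MC38-LM3b. The block changed no call of the 7 genes against MC38-P (Acta2 -0.90 and -1.02, Tpm2 0.78 and 0.70, Cnn2 0.31 and 0.41). It ended the calls of Pxn in MC38-LM3a (limma adjusted p = 0.0948) and Nr4a1 in MC38-LM3b (limma adjusted p = 0.0599).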
